A study of Homo sapiens with 5 samples.

Results

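The 28 genes described here are protein-coding genes of chromosome band 17q12, listed from AATF to CDK12 with members of the TBC1D3 and CCL families left out. The stretch was chosen by the FPKM difference between gefitinib-resistant HCC827/GR cells and parental HCC827 cells, which was above 0 for neighbouring genes, so that difference is given below as a description with no test. Of the 28, 27 had an entry under their own symbol in the deposited table of 37181 genes or assembled loci, and 24 of these had a mean of at least 0.5 FPKM (fragments per kilobase of transcript and per fixed number of mapped fragments), the lower limit for the model. Where a symbol had several entries, the entry with the highest mean was taken. SYNRG, the gene of an adaptor-binding protein of the trans-Golgi network, had no entry of its own, because its transcripts were joined to the entry of DDX52.

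HCC827 is a human lung adenocarcinoma cell line with an activating deletion in exon 19 of EGFR, and the labels give the exon 19 deletion as the genotype of all 5 libraries, which was not checked here. HCC827/GR cells (GR in the plots) were derived from it by rising doses of gefitinib, an EGFR tyrosine kinase inhibitor, over more than 6 months, and the parental cells (GS in the plots) had no such selection. Total RNA of HCC827/GR replicates 1, 2 and 3 and of HCC827 replicates 2 and 3 was compared. The sources do not say whether the resistant line was a single clone, nor whether replicates came from separate cultures, so the errors given here measure the spread between these 5 libraries, which may be technical.

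EGFR was at 7.82, 5.78 and 3.52 FPKM in the resistant libraries and at 70.8 and 56.4 FPKM in the parental ones. The summed level of 4 epithelial markers (EPCAM, KRT8, KRT18 and KRT19) lay between 437 and 565 FPKM in HCC827/GR. In HCC827 it lay between 1030 and 1160 FPKM. All 4 were above 0 in every library, and each was lower in every resistant library than in both parental ones. Ratios of the resistant to the parental mean ran from 0.111 (EPCAM) to 0.593 (KRT8). Of the markers of other cell types, the 3 immune genes stayed under 0.5 FPKM everywhere. The endothelial gene PECAM1 was listed at 0 in all 3 resistant libraries and at 4.34 and 3.32 FPKM in the parental ones. VWF and CDH5, the other endothelial genes, stayed under 0.5 FPKM everywhere. The 3 fibroblast genes summed to between 2.47 and 2.77 FPKM in HCC827/GR and between 3.05 and 3.28 FPKM in HCC827. The part of these marker differences in the values below was not tested. In bulk RNA, a change in how many cells express a gene and a change in the level per cell cannot be told apart. FPKM carries no read count, so the depth of the libraries is unknown and no counting interval is given.

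Band 17q12 is a gene-dense part of the long arm of chromosome 17. It also holds ERBB2, a receptor of the EGFR family, and is known for recurrent amplification in several carcinomas, although the libraries here hold RNA only. Its genes do not form a pathway. They encode parts of general machines of the cell, among them Mediator (MED1), which links transcription factors to RNA polymerase II, a kinase of that polymerase (CDK12), the proteasome (PSMB3) and both the cytosolic (RPL19, RPL23) and the mitochondrial ribosome (MRPL45), beside enzymes such as acetyl-CoA carboxylase (ACACA), which makes malonyl-CoA for fatty acid synthesis.

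Promoter sequences show what kind of start sites these genes share, a property that the choice of members did not use. RefSeq (GRCh38.p14) gave 26 promoters, read as the 250 bases before a start, for 21 of the members, and LHX1, DDX52, SOCS7, SRCIN1, RPL23, PLXDC1 and STAC2 were not matched. Their GC content had a median of 69.6% (range 43.2% to 84.0%), against a median of 62.0% over 22198 promoters of protein-coding genes and 58.0% over all 35116 promoters. The median number of CpG dinucleotides was 25.5, against 16 and 11. On either strand, the GC box GGGCGG occurred in 16 of the 26 (61.5%), against 53.7% of protein-coding and 42.6% of all promoters. The CCAAT box, searched as CCAAT, occurred in 10 (38.5%), against 32.7% and 32.0%. The TATA box, searched as TATAAA, occurred in 0 of the 26, against 9.01% and 10.7%. These promoters were therefore mostly rich in CpG, and no difference from other promoters was tested. Those of RPL19 overlap each other, and an ACACA promoter overlaps those of TADA2A, so some bases were counted more than once.

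The promoters below belong to the 2 members with the largest difference between the cell lines, ARHGAP23 and MRPL45, and to CWC25, the member with the smallest difference that has a promoter entry. They lie at chr17:38428214-38428463 (plus strand), chr17:38296918-38297167 (plus strand) and chr17:38825322-38825571 (minus strand). Each is written 5′ to 3′ with GC boxes, the only motif of the 3 found in them, in capitals.
ARHGAP23: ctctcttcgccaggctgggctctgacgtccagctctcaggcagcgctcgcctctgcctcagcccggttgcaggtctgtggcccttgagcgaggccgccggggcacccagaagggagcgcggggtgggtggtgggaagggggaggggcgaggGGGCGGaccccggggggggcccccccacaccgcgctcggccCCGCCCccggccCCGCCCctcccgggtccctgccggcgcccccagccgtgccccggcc
MRPL45: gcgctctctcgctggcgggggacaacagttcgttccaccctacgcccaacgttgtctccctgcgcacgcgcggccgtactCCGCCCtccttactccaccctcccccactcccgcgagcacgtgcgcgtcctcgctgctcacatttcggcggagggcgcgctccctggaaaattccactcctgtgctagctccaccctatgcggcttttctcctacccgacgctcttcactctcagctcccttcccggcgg
CWC25: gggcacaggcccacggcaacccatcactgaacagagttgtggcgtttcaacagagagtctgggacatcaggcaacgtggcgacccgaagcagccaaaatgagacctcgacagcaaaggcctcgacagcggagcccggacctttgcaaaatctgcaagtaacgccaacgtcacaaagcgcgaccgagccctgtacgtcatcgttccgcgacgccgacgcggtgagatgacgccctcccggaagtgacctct
The ARHGAP23 promoter has a GC content of 79.6%, the MRPL45 promoter 66.0% and the CWC25 promoter, which holds no GC box, 60.0%. The RefSeq start of ARHGAP23 lies inside the GENCODE gene, downstream of the first base that GENCODE gives.

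Positions of genes below are those of GENCODE release 29 (GRCh38). From the start of AATF at 36948875 to the end of CDK12 at 39564907 on chromosome 17, the stretch covers 2616 kb. Differences are given as the ratio of the group means in FPKM and as the HCC827/GR minus HCC827 difference of the mean log2(FPKM + 1) ± its standard error (SE) in limma. The second scale shrinks differences of genes near or below 1 FPKM. Of the 24 members in the model, 23 had a difference above 0, as did 50.2% of all 16189 entries in the model, and the median difference was 0.90, against 0.00 over all entries. In 20 of the 24 members every HCC827/GR library was above every HCC827 library (22.8% of all entries), in 4 the groups overlapped, and in none of the 24 were all resistant libraries below both parental ones (23.4% of all entries). A fold change of at least 2 with a p under 0.05 was reached by 11 members (2.96% of all entries), and an adjusted p under 0.05 with a higher level by 15 (5.26% of all entries). No member passed in the other direction, which 3.97% of entries did by fold change and p and 5.71% by adjusted p. The ratio of the group means was at least 2 in 12 members (9.17% of all entries). Because this contrast chose the stretch, nothing is read from these counts. The members took 0.740%, 0.813% and 0.836% of the summed FPKM of the resistant libraries and 0.429% and 0.390% of that of the parental libraries.

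**Figure D1:**
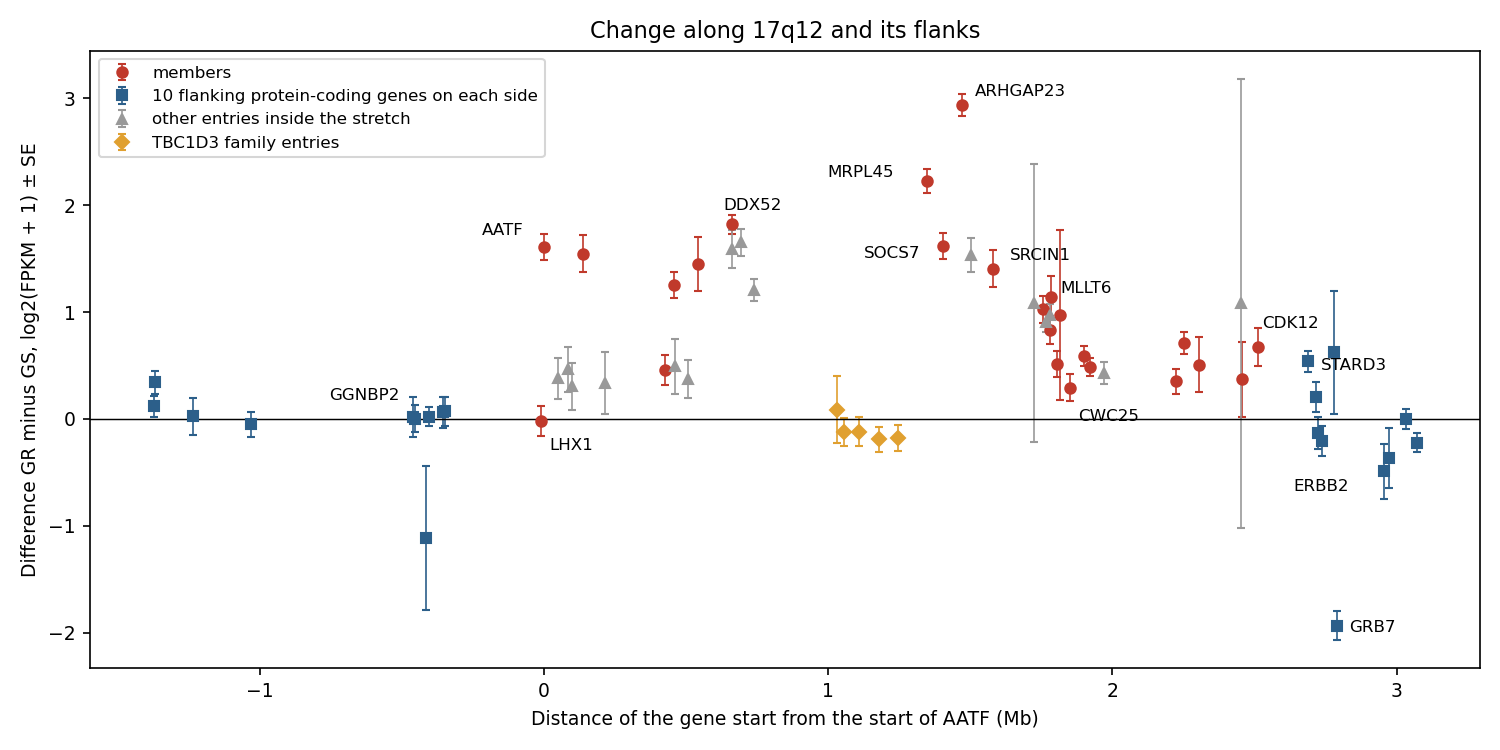
Difference between HCC827/GR (GR, 3 libraries) and HCC827 (GS, 2 libraries) on the log2(FPKM + 1) scale (vertical axis, points with bars of ± 1 SE). The horizontal axis gives the distance of each gene's lowest coordinate from the start of AATF in Mb. For genes on the minus strand this is where the gene ends. Drawn are the members, the 10 flanking protein-coding genes on each side and the other entries of the span, TBC1D3 family included. Only those that reach 0.5 FPKM on average are shown. The members from AATF on sit above 0, highest at ARHGAP23 (2.94), while LHX1, the TBC1D3 family entries and most flanking genes lie near 0.

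The first members lie between AATF and DDX52. In the order of HCC827/GR replicates 1, 2 and 3, AATF was at 55.5, 53.2 and 64.1 FPKM, and in HCC827 replicates 2 and 3 it was at 18.8 and 17.6 FPKM. Every resistant library was thus above both parental ones, with a ratio of 3.17 and a difference of 1.61 ± 0.12. AATF encodes an RNA polymerase II binding protein that acts against apoptosis and in the processing of ribosomal RNA. LHX1, a LIM homeobox transcription factor of the developing kidney and brain, starts 12.1 kb before AATF and so lies just outside the span. It was at 0.644, 0.523 and 0.546 FPKM in HCC827/GR and at 0.513 and 0.675 FPKM in HCC827. These values overlapped, with a difference of -0.02 ± 0.14. The direction changed without resistant replicate 2, without parental replicate 3, under quantile normalization and in Ballgown's model.

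ACACA, the cytosolic acetyl-CoA carboxylase, was at 75.7, 84.1 and 62.1 FPKM in the resistant libraries and at 27.0 and 22.2 FPKM in the parental ones. The groups were apart, with a ratio of 3.01 and a difference of 1.55 ± 0.17. The 2 further entries named ACACA, which hold no GENCODE transcript, were lower in level and had ratios of 2.31 and 2.35. C17orf78, a gene of unknown function that lies on the opposite strand within the ACACA gene, was at 0.944, 0.872 and 0.709 FPKM against 0.403 and 0.285 FPKM. Its ratio was 2.45, its difference only 0.45 ± 0.14 on the log2(FPKM + 1) scale, and it did not reach the fold change of 2 there. Since the strand of the reads is not given in the sources used here, reads of ACACA and of C17orf78 cannot be told apart where the genes overlap.

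TADA2A, an adaptor of the ATAC histone acetyltransferase complex, starts 56 bases from the start of ACACA and runs in the other direction. Its levels were 6.45, 5.35 and 5.65 FPKM in HCC827/GR and 1.67 and 2.04 FPKM in HCC827. With a ratio of 3.14 and a difference of 1.26 ± 0.12, it stood about as far apart as its divergent neighbour. DUSP14, a dual-specificity phosphatase that acts on MAP kinases, was at 49.1, 30.6 and 48.7 FPKM in the resistant libraries and at 13.3 and 16.2 FPKM in the parental libraries. All 3 resistant values were above the parental ones, replicate 2 being the lowest of the 3, with a ratio of 2.90 and a difference of 1.45 ± 0.25.

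The entry of DDX52, a DEAD-box RNA helicase of the small ribosomal subunit pathway, also holds the SYNRG transcripts, so the value belongs to both genes. It was at 19.7, 19.9 and 21.6 FPKM against 4.97 and 5.13 FPKM. Spread within groups was small, and the ratio was 4.04 with a difference of 1.82 ± 0.09.

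After DDX52, 653.6 kb that hold the TBC1D3 copies separate it from MRPL45, and the largest differences of the list follow there. MRPL45, a protein of the large subunit of the mitochondrial ribosome at its membrane contact, was at 215, 203 and 224 FPKM in HCC827/GR and at 41.9 and 48.2 FPKM in HCC827. The groups lay far apart, with a ratio of 4.76 and a difference of 2.23 ± 0.11. Its pseudogene MRPL45P2 has 6 entries, with summed values between 11.1 and 15.9 FPKM in the resistant and between 10.1 and 10.6 FPKM in the parental libraries. How many reads the copies share was not measured. GPR179, an orphan receptor known from bipolar cells of the retina, was at 0.509, 0.503 and 0.418 FPKM against 0.165 and 0.179 FPKM. Its mean was under 0.5 FPKM and it was not in the model, although its ratio was 2.77 and its groups did not overlap.

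SOCS7, a suppressor of cytokine signalling protein with an SH2 domain, was at 13.1, 13.6 and 11.7 FPKM in the resistant libraries and at 3.13 and 3.85 FPKM in the parental ones. Its ratio was 3.66 and its difference 1.62 ± 0.12. ARHGAP23, a GTPase-activating protein, was at 38.5, 36.3 and 42.4 FPKM in HCC827/GR and at 4.12 and 4.30 FPKM in HCC827. This was the largest difference among the members in the model, 2.94 ± 0.10 with a ratio of 9.28. Its pseudogene on another chromosome, ARHGAP23P1, was at 4.09, 3.40 and 3.80 FPKM against 0.472 and 0.431 FPKM, and how the counting shared reads between the copies is not given in the sources used here.

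SRCIN1, which encodes p140Cap, an inhibitor of SRC kinase, has 4 entries. The one with the highest mean holds no GENCODE transcript and was at 2.41, 1.49 and 1.99 FPKM in the resistant libraries and at 0.160 and 0.0575 FPKM in the parental ones. Its ratio of 18.0 is the highest of the members in the model but rests on parental values far below 1 FPKM, and on the log2(FPKM + 1) scale the difference was 1.41 ± 0.18. The entry with the GENCODE transcripts of SRCIN1 was at 1.65, 1.52 and 1.58 FPKM against 0.135 and 0.108 FPKM. It too had all resistant libraries above the parental ones, with a ratio of 13.0 and a difference of 1.20 ± 0.11.

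**Figure D2:**
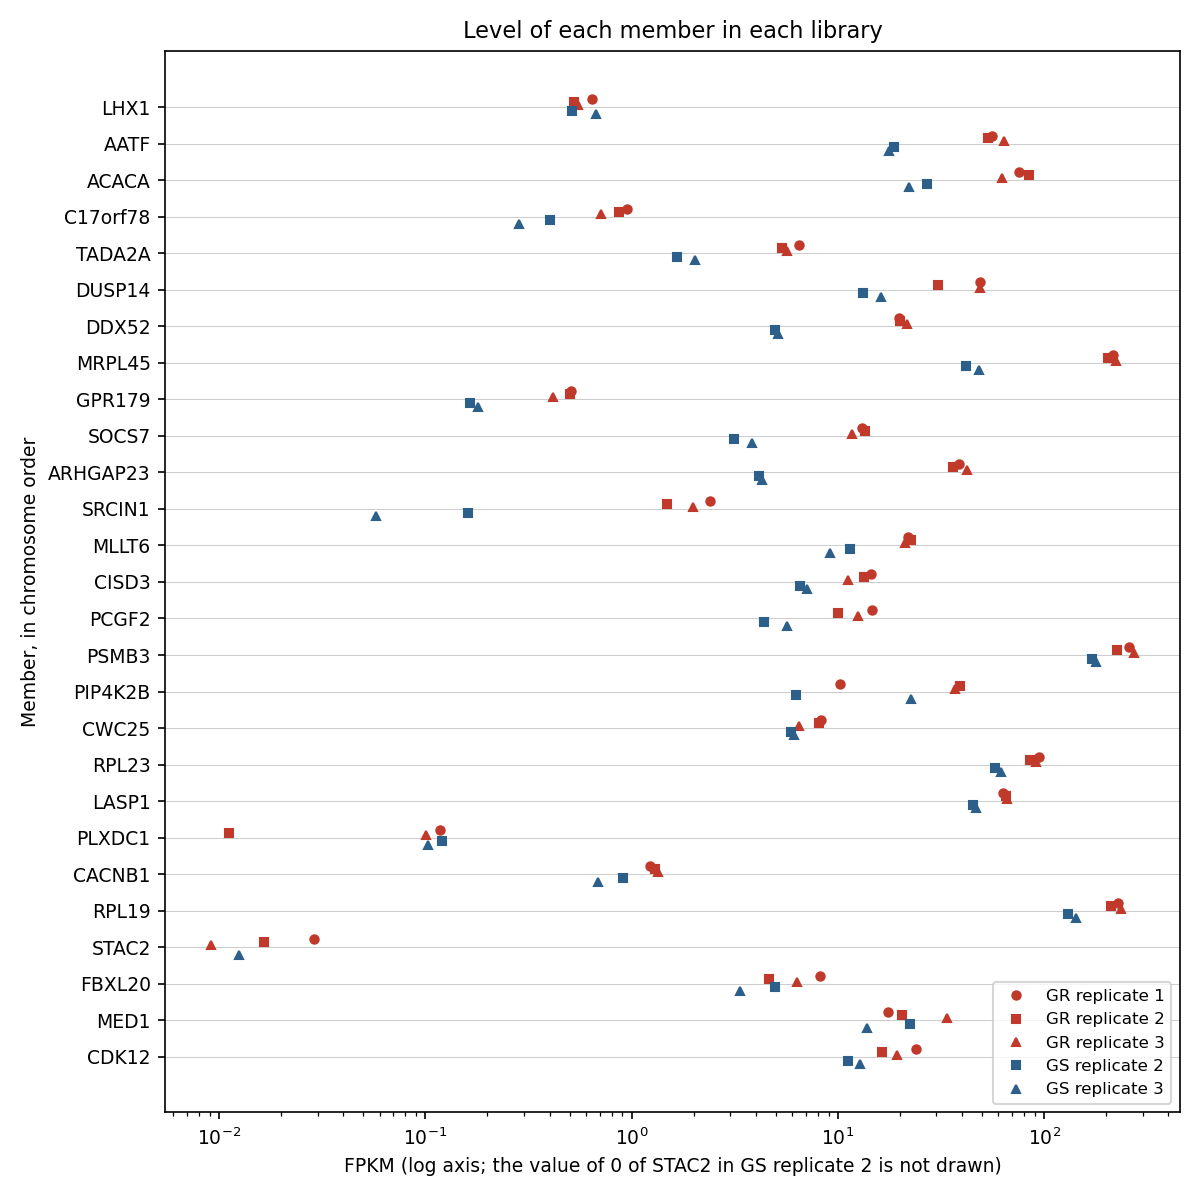
FPKM of the 27 members with an entry (log horizontal axis) in each library, in chromosome order from top to bottom, with HCC827/GR libraries in red and HCC827 libraries in blue and 1 marker shape per replicate number. The groups lie farthest apart from AATF to SRCIN1 and closer from MLLT6 on, and the levels range from under 0.1 FPKM (STAC2) to 271 FPKM (PSMB3).

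Between SRCIN1 and MLLT6 lie 99.6 kb, and the size of the differences was smaller after them. This division was made after the values were seen and has no test. From AATF to SRCIN1, the 10 members in the model had ratios between 2.45 and 18.0 with a median of 3.42. In all 10, every resistant library was above every parental one (22.8% of all entries). The fold change of 2 with a p under 0.05 was reached by 9 of them (2.96% of all entries). From MLLT6 to CDK12, the 13 members in the model had ratios between 1.27 and 2.46 with a median of 1.61. In 10 of these, every resistant library was above every parental one, beside the same 22.8%. Only MLLT6 and PCGF2 reached the fold change of 2 with a p under 0.05 among these 13, beside the same 2.96%.

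MLLT6, a PHD finger protein known as a fusion partner of the KMT2A gene in leukaemia, was at 21.8, 22.7 and 21.1 FPKM in HCC827/GR and at 11.5 and 9.11 FPKM in HCC827. Its ratio was 2.12 and its difference 1.02 ± 0.12, close to the limit of 2, and without parental replicate 3 the difference was 0.87, under that limit. The entry AC006449.7, on the opposite strand with its lowest coordinate within MLLT6, was at 43.6, 37.8 and 39.1 FPKM against 20.6 and 19.3 FPKM. Reads of MLLT6 and of AC006449.7 cannot be told apart where they overlap. CISD3, an iron-sulfur protein of mitochondria, was at 14.4, 13.4 and 11.2 FPKM against 6.57 and 7.06 FPKM. It lay just under the limit, with a ratio of 1.91 and a difference of 0.83 ± 0.13. PCGF2, a RING finger subunit of Polycomb repressive complex 1 (PRC1), overlaps the end of CISD3 on the opposite strand. It was at 14.6, 9.97 and 12.6 FPKM in the resistant libraries and at 4.38 and 5.69 FPKM in the parental ones, with a ratio of 2.46 and a difference of 1.14 ± 0.20, which was 0.99 without parental replicate 2. Both genes were higher in all 3 resistant libraries, and the reads of the shared part cannot be assigned to either.

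PSMB3, a beta subunit of the 20S proteasome core, had the highest level of the list in the parental libraries. It was at 257, 224 and 271 FPKM in HCC827/GR and at 171 and 179 FPKM in HCC827. Though the groups did not overlap, the ratio was only 1.44 and the difference 0.51 ± 0.12. CWC25, a splicing factor of the catalytic spliceosome, was at 8.31, 8.07 and 6.49 FPKM against 5.92 and 6.09 FPKM. Among members in the model without overlap it had the smallest ratio, 1.27, with a difference of 0.29 ± 0.13.

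RPL23, a protein of the large cytosolic ribosomal subunit, was at 94.5, 85.4 and 91.3 FPKM in the resistant libraries and at 57.8 and 61.9 FPKM in the parental ones. Its ratio was 1.51 and its difference 0.59 ± 0.10. RPL19, another protein of the same subunit farther along the stretch, was at 229, 211 and 235 FPKM against 131 and 143 FPKM. The ratio of RPL19 was 1.64 and its difference 0.71 ± 0.11, so both ribosomal genes were higher in each of the 3 resistant libraries by a similar ratio. LASP1, an actin-binding adaptor of focal adhesions, was at 62.8, 65.5 and 65.7 FPKM in HCC827/GR and at 45.2 and 46.5 FPKM in HCC827. Its replicates lay close together, with a ratio of 1.41 and a difference of 0.49 ± 0.08. The antisense entry AC006441.3, with its lowest coordinate within LASP1, was at 73.1, 76.6 and 84.1 FPKM against 58.3 and 57.1 FPKM. Reads of LASP1 and of AC006441.3 cannot be told apart where they overlap.

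CACNB1, an auxiliary beta subunit of voltage-gated calcium channels, was at 1.23, 1.30 and 1.34 FPKM in the resistant libraries and at 0.908 and 0.690 FPKM in the parental ones. The ratio was 1.61, with a difference of 0.35 ± 0.12 near the floor of the log2(FPKM + 1) scale. CDK12, a kinase of the RNA polymerase II tail that pairs with cyclin K, was at 23.9, 16.4 and 19.4 FPKM against 11.2 and 12.8 FPKM. It is the last member of the stretch, and its lowest resistant library was still above both parental ones, with a ratio of 1.66 and a difference of 0.67 ± 0.18.

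PLXDC1, a plexin domain protein of tumour endothelium, was at 0.117, 0.0112 and 0.101 FPKM in HCC827/GR and at 0.121 and 0.102 FPKM in HCC827. STAC2, an adaptor protein of voltage-gated calcium channels, was at 0.0288, 0.0165 and 0.00917 FPKM against 0 and 0.0125 FPKM. Both were too low for the model, their groups overlapped, and no fold is given.

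For PIP4K2B, FBXL20 and MED1 the groups overlapped, and the size of the difference moved with single libraries. PIP4K2B, a phosphatidylinositol 5-phosphate 4-kinase, was at 10.2, 39.2 and 37.1 FPKM in the resistant libraries and at 6.29 and 22.6 FPKM in the parental ones. Resistant replicate 1 and parental replicate 2 were several times below the other libraries of their groups, so that the groups overlapped. Its ratio was 1.99 and its difference 0.97 ± 0.80, which was 1.58 without resistant replicate 1, 0.13 without parental replicate 2, 1.82 without parental replicate 3 and 0.08 in Ballgown's model.

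FBXL20, an F-box protein of a ubiquitin ligase, was at 8.18, 4.65 and 6.31 FPKM in HCC827/GR and at 4.97 and 3.34 FPKM in HCC827. Resistant replicate 2 was below parental replicate 2. The ratio was 1.54 and the difference 0.51 ± 0.26, which became 0.34 without resistant replicate 1, 0.69 without resistant replicate 2, 0.74 without parental replicate 2 and 0.28 without parental replicate 3.

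MED1, the Mediator subunit that binds nuclear receptors, was at 17.5, 20.4 and 33.8 FPKM against 22.2 and 13.9 FPKM. These groups overlapped, with a ratio of 1.33 and a difference of 0.37 ± 0.35, which was 0.10 without resistant replicate 3, 0.05 without parental replicate 3, 0.56 without resistant replicate 1, 0.69 without parental replicate 2 and -0.04 in Ballgown's model. The entry AC005288.1, antisense to the end of MED1 (39401793 to 39406233 on the plus strand), was at 28.2, 30.6 and 0.0510 FPKM in the resistant libraries and at 0.0178 and 20.4 FPKM in the parental ones. It was near 0 in resistant replicate 3 and parental replicate 2, the libraries in which MED1 was highest within its group. AC005288.1 also overlaps the start of FBXL20, which lies on the minus strand. Its reads cannot be told apart from those of MED1 or FBXL20 where they overlap.

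**Figure D3:**
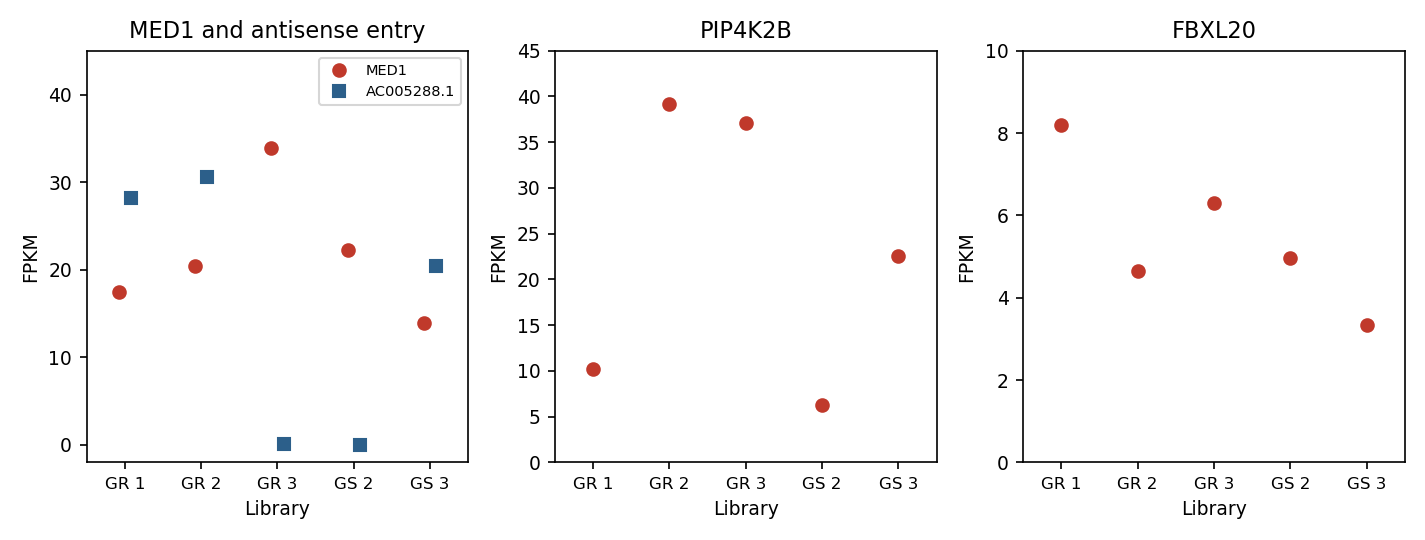
FPKM in each library (horizontal axis, GR for HCC827/GR and GS for HCC827) of MED1 with the antisense entry AC005288.1 (left), PIP4K2B (middle) and FBXL20 (right). In all 3 panels the member's values overlap between the groups, and AC005288.1 lies at 0.0510 FPKM or below in GR 3 and GS 2 and at 20.4 FPKM or above in the other libraries.

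By strand, 13 of the 14 members in the model on the plus strand had every resistant library above every parental one, with a median ratio of 2.29. On the minus strand 7 of the 10 did, with a median ratio of 1.80. Over all entries the share was 22.8%. Nothing is read from this split either, since the same difference chose the members.

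The same span also holds entries that are not members. Of 33 such entries outside the TBC1D3 and CCL families, mostly antisense and other non-coding transcripts and pseudogenes, 15 were in the model. All 15 had a difference above 0 (50.2% of all entries), with ratios between 1.35 and 18.9 and a median difference of 0.90. In 10, every resistant library was above every parental one (22.8% of all entries). The fold change of 2 with a p under 0.05 was reached by 4 (2.96% of all entries). AC243585.2, an antisense transcript within DDX52, was at 9.45, 9.09 and 7.63 FPKM in HCC827/GR and at 1.76 and 2.77 FPKM in HCC827, a ratio of 3.85. AC243571.2, which runs from the start of DDX52 in the other direction, was at 2.93, 2.57 and 2.25 FPKM against 0.119 and 0.154 FPKM, a ratio of 18.9. AC244153.1, on the opposite strand within ARHGAP23, was at 2.60, 2.17 and 2.99 FPKM against 0.118 and 0.352 FPKM, a ratio of 11.0. These transcripts overlap or adjoin members, so they are not separate evidence where reads are shared, and they were picked after their values were seen. AC243571.2 and AC244153.1 passed the limit of 0.5 FPKM only through their resistant libraries. Entries of the span under that limit went in both directions, so nothing is read from the count above 0.

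The TBC1D3 family entries between DDX52 and MRPL45 did not share this direction. TBC1D3 genes encode near-identical copies of a hominoid protein related to Rab GTPase-activating proteins, and reads may be split between copies here and elsewhere. Of the 6 entries, 5 were in the model, with ratios between 0.787 and 1.08 and a median difference of -0.12. TBC1D3E was at 2.79, 2.34 and 2.15 FPKM in the resistant libraries and at 3.02 and 2.79 FPKM in the parental ones.

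Flanking genes were set beside the stretch, but they do not place the end of the difference. The nearest of those before AATF lies 339.9 kb away, and STARD3, the nearest after CDK12, was still higher. Of the 10 nearest protein-coding genes in the model before the stretch (among them MRM1, DHRS11, GGNBP2, PIGW, MYO19, ZNHIT3, RDM1, TAF15 and AP2B1), none reached the fold change of 2 with a p under 0.05 in limma, and 1 (AP2B1) had an unadjusted p under 0.05. Of all entries, 2.96% passed the fold change and p limits higher and 3.97% lower. The median difference of these 10 genes was 0.02, and 8 of the 10 overlapped between groups. MRM1, a mitochondrial rRNA methyltransferase and the nearest of them, ends 339.9 kb before AATF and had a ratio of 1.06. GGNBP2 was at 4.63, 4.83 and 4.78 FPKM in HCC827/GR and at 4.81 and 4.52 FPKM in HCC827, a ratio of 1.02. PIGW had the lowest difference, -1.11 ± 0.67, which rests on the 7.95 FPKM of parental replicate 3. AP2B1, a subunit of the clathrin adaptor AP-2, was higher in each resistant library with a ratio of 1.28.

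Past CDK12, STARD3, a cholesterol transporter of late endosomes, was still higher in each resistant library. It was at 8.79, 8.99 and 7.87 FPKM against 5.60 and 5.52 FPKM, a ratio of 1.54 and a difference of 0.54 ± 0.10. TCAP, a titin-binding protein of muscle, had a ratio of 1.56 with low levels of at most 0.633 FPKM. PGAP3, which lies 106.2 kb past the end of CDK12, had a ratio of 0.876 with overlapping groups. ERBB2 starts 123.0 kb after CDK12 and was at 10.5, 10.7 and 8.27 FPKM in the resistant libraries and at 12.02 and 10.8 FPKM in the parental ones. Its ratio was 0.860 and its difference -0.21 ± 0.14, so the difference of the members was not seen at ERBB2.

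GRB7, an adaptor of receptor tyrosine kinases next to ERBB2, was at 3.05, 2.58 and 2.56 FPKM in HCC827/GR and at 14.7 and 11.9 FPKM in HCC827. With a difference of -1.93 ± 0.13 it was the only one of the 10 genes after the stretch to pass the fold change and p limits, and it did so in the other direction. The remaining genes (MIEN1, GSDMB, ORMDL3, PSMD3 and MED24) had ratios between 0.522 and 1.72, and 4 of these 5 overlapped between groups. The median difference of the 10 was -0.17.

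Relatives and partners of the members that are encoded elsewhere were set beside them. Of 32 listed relatives, 24 were in the model, and none passed the fold change and p limits in either direction in limma. Of all entries, 2.96% passed higher and 3.97% lower. The median difference of the relatives was 0.06, against 0.90 for the members and 0.00 for all entries. At an unadjusted p under 0.05 in limma, 4 of the relatives were higher and 4 lower. The largest differences with an adjusted p under 0.05 in limma were those of PCGF5 (0.58 ± 0.11) and STAC (-0.90 ± 0.15), relatives of PCGF2 and STAC2. ARHGAP21, the closest relative of ARHGAP23, was at 8.10, 6.30 and 5.20 FPKM against 8.75 and 5.40 FPKM, a difference of -0.09 ± 0.26. CDK13, the closest relative of CDK12, was at 9.57, 7.82 and 8.40 FPKM against 6.25 and 8.37 FPKM, a difference of 0.22 ± 0.16. ACACB, the mitochondrial relative of ACACA, was under 0.5 FPKM on average and not in the model. MLLT10, a relative of MLLT6, was higher in each resistant library with a smaller ratio of 1.44.

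Among the 10 lists of relatives and partners, 183 genes of the 9 partner lists entered the model and 1 of them passed the fold change and p limits. This was CBX2, a chromodomain subunit of PRC1, at 2.91, 1.28 and 1.74 FPKM in HCC827/GR and 0.519 and 0.310 FPKM in HCC827, with a difference of 1.04 ± 0.26. PCGF2 lay 1.14 above 0 beside a median of 0.05 over 17 other PRC1 genes. The 42 other proteins of the mitochondrial large ribosomal subunit had differences between -1.96 and 0.63 with a median of 0.10, and MRPL45, at 2.23, lay outside that range. MRPL2 (0.63 ± 0.09) and MRPL42 (-0.59 ± 0.09) were those of the 42 with an adjusted p under 0.05 in limma.

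PSMB3, at 0.51, lay above the range of the 13 other 20S proteasome genes, from -0.43 to 0.40 with a median of 0.22, of which 11 were above 0. RPL23 and RPL19, at 0.59 and 0.71, stood beside a median of 0.04 over 37 other proteins of the large cytosolic subunit, among which RPL29 reached 1.26 ± 0.49 and RPL17 had -0.58 ± 0.10. AATF and DDX52, at 1.61 and 1.82, lay above the 20 listed genes of pre-rRNA processing, which ranged from -1.12 to 0.21. TADA2A, at 1.26, lay above the 15 listed genes of the ATAC and SAGA acetyltransferase complexes, which ranged from -0.30 to 0.64. ACACA, at 1.55, lay above the 8 listed genes of fatty acid synthesis in the model, which ranged from -0.77 to 0.94. CDK12, at 0.67, lay above the 7 listed elongation kinases and cyclins, which ranged from -0.17 to 0.40. MED1, at 0.37 with its wide error, lay within the range of the 24 Mediator genes, from -0.72 to 0.80, whose median was 0.01. Since the members were chosen for being higher, a place above their partners follows in part from that choice and has no test.

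**Figure D4:**
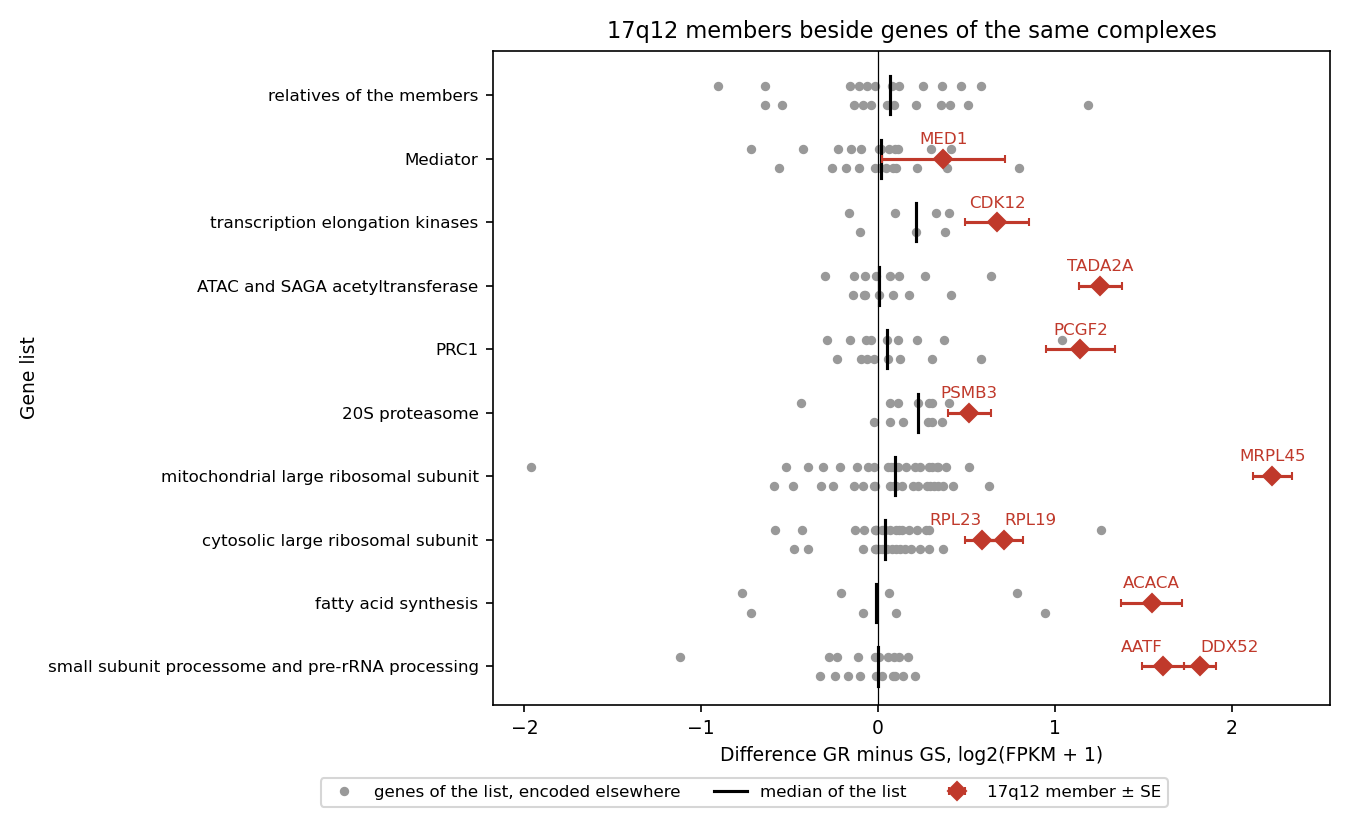
Difference between HCC827/GR (GR) and HCC827 (GS) on the log2(FPKM + 1) scale (horizontal axis) for 10 lists of genes encoded outside the stretch (grey points, median as a black line) and for the 17q12 members of the same complexes (red diamonds with bars of ± 1 SE). MRPL45 (2.23), DDX52 (1.82), AATF (1.61), ACACA (1.55), TADA2A (1.26) and PCGF2 (1.14) lie to the right of every grey point of their list, MED1 (0.37), RPL23 (0.59) and RPL19 (0.71) do not, and the medians of the lists lie between -0.01 and 0.22.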

How the data were processed

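The values are FPKM per gene or assembled locus, which the authors deposited after trimming with Cutadapt, mapping with Bowtie2 and TopHat2 and assembly with StringTie and Ballgown. The submitters' processing notes name the build hg18 and the paper names none, so no coordinate was read from the files. The labels describe a small RNA library with single-end reads. The paper describes total RNA depleted of ribosomal RNA and paired-end reads. Which of them holds was not tested. One further FPKM column (1 in all) matched no sample and was not used here.

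Positions came from GENCODE release 29 (GRCh38) through the Ensembl transcript identifiers of the table, of which 135164 of 135299 matched, and promoters from RefSeq (GRCh38.p14). For 16 of 21 members, the 50 bases after the RefSeq start occurred in a GENCODE transcript of the gene.

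HCC827/GR and HCC827 were compared on the log2(FPKM + 1) scale by limma 3.58.1 in R 4.3.3 (lmFit, then eBayes with its trend option, two-sided), for entries averaging at least 0.5 FPKM, with Benjamini-Hochberg adjustment over all 16189. Limma replaced Ballgown's test, which was kept as an alternative. The steps were tested on simulated data. Tables and plots used Python 3.11.15, pandas 2.3.3, numpy 2.4.6 and matplotlib 3.10.9.

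The members and all gene lists were chosen with earlier results of these data known. The text names all 28 members, the flanking genes on each side, the genes of each list that passed a fold change of 2 with a p under 0.05 (at most 4 a list), and close relatives. It also names genes at the ends of a list's range, those with an adjusted p under 0.05 and overlapping non-coding entries, all chosen after their values were seen. Some genes of the span and its flanks are not reported here.

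Alternatives left out each library in turn, used a replicate block, Ballgown's model or limma with no trend, scaled by median ratios or quantiles, summed entries of a symbol, took the ratio of group means, set the pseudocount to 0.1, or moved the lower limit on mean FPKM to 1 or to none.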

Additional observations from a re-analysis of the deposited data

How the results depend on the processing

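Under the 15 alternatives, between 22 and 25 members had a difference above 0. The 22 were all members in the model at a limit of 1 FPKM, where LHX1 and C17orf78 drop out. The 25 were of the 27 members with an entry, with no filter. Under the alternatives that kept both parental libraries, between 9 and 12 members passed the fold change and p limits. The main comparison had 11, and 10 or 11 passed with a resistant library left out. Under Ballgown's model DUSP14 and PCGF2 had no p under 0.05. The median difference of the members, 0.90, was 1.06 with a pseudocount of 0.1, 0.71 with no filter and between 0.76 and 0.89 with a library left out. That of the other entries of the span, 0.90, was 0.27 with no filter, which admits entries near 0 FPKM, 0.52 with the replicate block and between 0.47 (without parental replicate 2) and 0.95 with a library left out. The cause of the other shifts was not tested. Relatives passing the limits numbered 0, and 1 with a pseudocount of 0.1, 1 by the ratio of the mean FPKM and between 0 and 1 with a library left out. Partners passing numbered 1, and 2 with a pseudocount of 0.1, 2 with the replicate block, 2 with summed entries, 2 by the ratio of the mean FPKM, 0 in Ballgown's model (CBX2 no longer passing) and between 0 and 3 with a library left out. Of 334 limma or Ballgown differences of the members in the model that were recomputed under the alternatives, 311 kept their direction and their side of the p limit of 0.05. The others were 15 that lost and 3 that gained a p under that limit, and 5, of LHX1 and MED1, that had no such p in either setting and another sign. Deviations from the group mean hardly correlated between libraries of the same replicate number (0.03 and 0.01 for the 2 shared numbers). With only 2 parental libraries, their deviations mirror each other, so this cannot show whether the samples were paired. The replicate block left 11 members passing. Resistant replicate 1 has no parental partner, so the block gave the members the same differences as leaving that library out. Over all entries, 480 passed higher and 643 lower, against 860 and 1024 with a pseudocount of 0.1 and 919 and 1201 by the ratio of the mean FPKM. MLLT6 no longer reached a fold change of 2 without parental replicate 3 (0.87) or resistant replicate 2 (0.9988, where 1 is the limit) and under quantile normalization (0.98), nor PCGF2 without parental replicate 2 (0.99). Depth is unknown and limits what can be said of members under 1 FPKM.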
